A study of Mus musculus with 384 samples.

Results

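The cells described here are adult luminal mammary cells, the epithelial cells that line the ducts and alveoli of the mouse mammary gland, taken as the sort gate of CD24-positive cells with low CD29. Of the single-cell wells with this title and sort label, 89.3% were kept, all but 13. A kept well had no fewer than 50000 gene reads, no fewer than 1500 genes with reads and no more than 20% mitochondrial reads. The kept luminal cells, which fall into clusters of 47 and 61 cells below, make up 32.6% of the 331 cells kept among 376 single-cell wells in the whole study. The kept wells nearest the limits had 63571 reads, 1530 genes and 15.92% mitochondrial reads. Just outside lay wells with 47134 reads, with 1313 genes and with 21.55% mitochondrial reads.

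The study sequenced cells of 3 sort gates on 1 plate of 384 wells with Smart-seq2, a protocol that amplifies whole transcripts from single cells. The luminal cells and the basal cells (CD24-positive with high CD29) came from dissected adult glands of mice whose source is given as Rosa-tdTomato, a line with a red fluorescent reporter, and the embryonic progenitors (high CD49f and high Lgr5) from the whole skin of female Lgr5-EGFP-IRES-CreER embryos at embryonic day 14. Cells positive for CD45, CD31 or CD140a were excluded in all gates, and no treatment is labelled. The gates filled mostly separate blocks of plate rows, so plate position cannot be told apart from gate. Age, sex and parity of the adult mice, any Cre driver for the reporter and the number of animals are not given in the labels. Each gate is therefore 1 sample, cells are not replicates, no test was possible, and intervals are exact 95% intervals for counting error only, with PCR reads that are not independent molecules.

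Textbook accounts divide luminal cells into a hormone-sensing subset and a secretory subset. Hormone-sensing cells carry the receptors for oestrogen, progesterone and prolactin and signal to their neighbours with secreted factors such as amphiregulin. Secretory luminal progenitors carry the receptor tyrosine kinase Kit and the transcription factor Elf5, and give rise to the alveolar cells that make milk.

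Kept luminal cells held a median of 535276 reads (range 63571 to 1595858) and 3726.5 genes with a read (1530 to 7074), while 4 wells into which no cell was sorted held 34 to 563 reads. The reads summed over the gate correlated with the well of 50 luminal cells (Spearman 0.732 across 8986 genes, which are not independent replicates). Against the wells of 50 cells of each gate, 2 of the luminal cells correlated best with the embryonic well. Both lay in plate row F, with Krt8, a luminal keratin, at 2633 and 262 CPM (read counts of a gene scaled to an equal total of reads on genes) and Krt14, a basal keratin, at 104.5 and 1040 CPM. In the basal gate 10 of 100 cells matched another gate's well. Without the 2 luminal cells, Prlr was detected in 65.09%, Kit in 47.2% and Csn3 in 58.5% of the others, and for ratios between gates of named genes the value without the matching cells of all gates is given where it moved by more than 1.5 times.

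The gate met its label. All kept cells had reads of Krt8 and Krt18, the keratin pair of simple epithelia, and at least 3 of the 6 luminal markers were detected in each cell, where detection means at least 5 reads after the cell was thinned to 50000 reads, a level of 100 CPM. That many of the 6 markers were detected in 12 of 100 basal and in 8 embryonic cells. Over the luminal gate Krt8 lay at 4732 CPM, Krt18 at 6326, Krt19, another luminal keratin, at 2814, Csn3, the milk protein kappa-casein, at 5573, Prlr, the prolactin receptor, at 2651, and Kit at 326 CPM. In the well of 50 luminal cells Krt8 lay at 5394, Krt18 at 8776, Krt19 at 1567, Csn3 at 5591 and Prlr at 2755 CPM. Kit lay far lower there than in the summed cells, at 52.6 CPM. Krt8 and Krt18 lie beside each other on chromosome 15 of GRCm38, the genome build used throughout, at chr15:101996698-102004482 and chr15:102028180-102032027. Krt19 lies at chr11:100140810-100148665, Prlr at chr15:10177238-10349180, and Csn3 and Kit on 1 chromosome at chr5:87925579-87932665 and chr5:75574916-75656722.

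Markers of the cells that the gate should not hold were low. Immune markers summed to 5.55 CPM, with 7 of 10 genes without a read, including Ptprc, which encodes CD45. Endothelial markers summed to 11.4 CPM (4 of 8 without a read), erythroid markers to 1.36 CPM (2 of 5 without a read), and of 6 adipocyte markers only Fabp4 had reads (8.64 CPM, 80.9% of them in 1 cell). Fibroblast markers summed to 65.8 CPM over 9 genes, most of it Dcn, a matrix proteoglycan, at 41.5 CPM. The 14 basal and myoepithelial genes summed to 230 CPM against 25990 in the basal gate, per-cell sums ran from 0 over a median of 3.27 to 7672 CPM, and 9 luminal cells had at least 3 of them detected. The contractile actin Acta2 was the highest of them at 69.4 CPM, with 35.2% of its reads in 1 cell.

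The most abundant transcripts described a keratin-rich, secretory epithelium. Levels of different genes are compared per exon length, as TPM, in which reads are scaled by exon length. Ribosomal protein, mitochondrial and unnamed model genes are left out of this ranking. After a ribosomal RNA gene, CT010467.1, whose near-identical genomic copies make its level uncertain (33275 TPM), the highest named gene was Spp1, the secreted phosphoprotein osteopontin, at 18918 TPM. Krt18 followed at 12619 TPM, B2m, the light chain of MHC class I, at 10420, the translation factor Eef1a1 at 9372, the protease inhibitor Cst3 at 8402, the membrane-anchored Ly6d at 7215, Krt8 at 6927 and Lalba, the milk protein alpha-lactalbumin, at 6790 TPM. Plet1, a surface protein of epithelial progenitors, reached 5435 TPM, the cytoskeletal actin Actb 4591 and Krt19 4347. The 100 most abundant genes took 30.1% of the reads of the gate and the 10 most abundant 10.7%, and in single cells the share of the top 100 ran from 16.04% over a median of 30.01% to 45.7%.

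A high level over the gate did not mean a high level in each cell. Of 1864 genes at 100 CPM or more, 1233 were detected in fewer than 50% of the cells. Only 34 genes were detected in every cell and 631 in at least 50%. Spp1, second by TPM among the ranked genes, was uneven: its level ran from 0 over a median of 2143 to 57114 CPM, 62 cells detected it (57.4%, interval 47.5% to 66.9%), and 9 cells held 50% of its reads. Eef1a1 lay at the other end, with 1177, 7929 and 16372 CPM as lowest, median and highest value and detection in 100% of the cells (the lower limit of the interval is 96.6%).

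Krt8 and Krt18 were detected in nearly all cells, and the remaining markers in a part of them. Krt18 ran from 15.7 over a median of 5613 to 16391 CPM and was detected in all but 2 cells (98.2%, interval 93.5% to 99.8%), against 32% of basal and 36.6% of embryonic cells. Krt8 ran from 3.56 over 3484 to 15791 CPM and was also detected in all but 2 cells, against 43% of basal and 65.04% of embryonic cells. Krt19 was less even, from 0 over 1721 to 11461 CPM, with 87 cells (80.6%, 71.8% to 87.5%). In the clusters described below, Krt8 was 2.13-fold and Krt19 3.2-fold higher in hormone-sensing-like than in secretory-like cells, with Krt19 in 46 of 47 and 41 of 61 cells. These keratins form the intermediate filaments of the luminal layer, and the plot of marker levels by cell shows Krt8 and Krt18 in both luminal clusters.

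Csn3, Prlr and Kit were each absent or near 0 in a large share of the cells. Csn3 ran from 0 over a median of 2269 to 47295 CPM, with detection in 63 cells (58.3%, 48.5% to 67.8%). Prlr ran from 0 over 692 to 12655 CPM, with 69 cells (63.9%, 54.1% to 72.9%). Kit ran from 0 over 76.1 to 2712 CPM, with 50 cells (46.3%, 36.6% to 56.1%) against 0 of 100 basal cells, which allows a share of up to 3% by 3 counts of the total (the exact interval ends at 3.62%), and 7 embryonic cells (5.69%). With 1 read in the unthinned cell as detection, the shares were 75% for Csn3, 87.04% for Prlr and 59.3% for Kit.

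**Figure D1:**
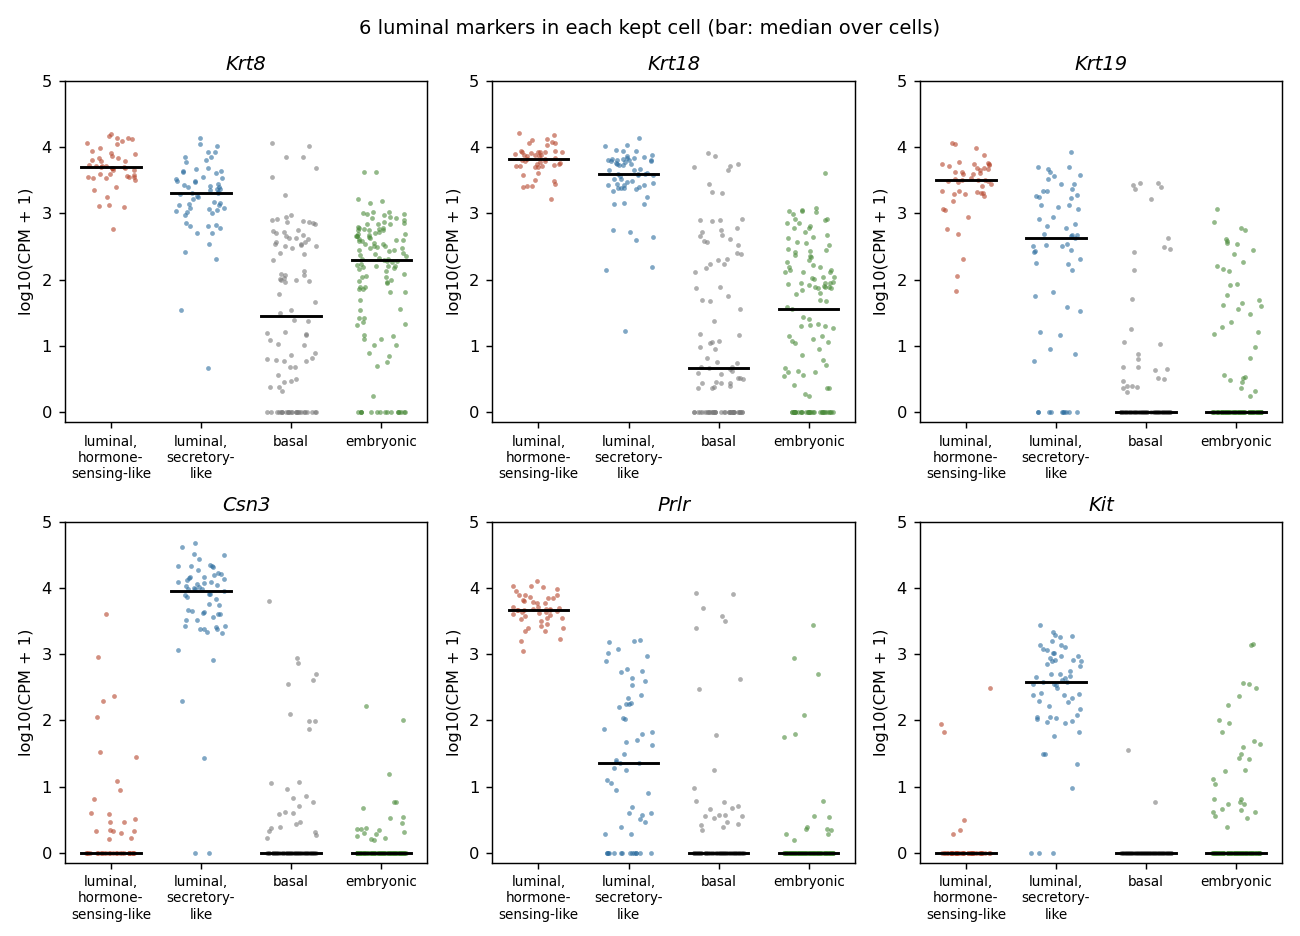
Levels of the 6 luminal markers in each kept cell (y axis, log10 of CPM + 1), with luminal cells split into their clusters beside basal and embryonic cells, and bars at the median over cells. Krt8 and Krt18 are high in both luminal clusters, Prlr is high in each of the 47 hormone-sensing-like cells, and Csn3 and Kit are high in most of the 61 secretory-like cells.

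Prlr and Kit, the receptors that mark the textbook subsets, were mostly found in different cells. Prlr alone was detected in 50 cells (46.3%, interval 36.6% to 56.1%), Kit alone in 31 (28.7%, 20.4% to 38.2%), both in 19 (17.6%, 10.9% to 26.1%) and neither in 8 (7.41%, 3.25% to 14.1%). The 19 cells with both had far less Prlr, from 156 over a median of 598 to 2662 CPM, than the 50 cells with Prlr alone, from 46.3 over 4658 to 12655 CPM. Their Kit ran from 86.2 over 354 to 2176 CPM, beside 110 over 718 to 2712 CPM in the cells with Kit alone, so the ranges overlapped. All 19 also had Csn3. Counting a single unthinned read as detection raises the share with both to 46.3%, so the size of this class rests on the detection limit.

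Other pairs overlapped in full or in part. All 40 cells with Esr1, the oestrogen receptor, had Prlr, and 29 more cells had Prlr without Esr1. Of 50 cells with Kit, 49 had Csn3. Elf5, the transcription factor of alveolar cells, was detected in 21 cells, of which 15 had Kit. Pgr, the progesterone receptor, was detected together with Esr1 in 15 cells, Esr1 alone in 25 and Pgr alone in 6. Transcription factors and receptors of this kind lay near the detection limit, at 82.8 CPM for Elf5 and 81.9 for Pgr over the gate, so a cell without detection is not a cell without the transcript.

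Clustering on the 500 most variable genes gave 2 clusters of luminal cells, chosen by the mean silhouette (0.477 at 2 clusters, 0.344 at 3). One held 47 cells (43.5%, interval 34% to 53.4%) and was called hormone-sensing-like from a fixed marker list, with a median of 8 of 12 hormone-sensing and 1 of 16 secretory progenitor markers detected. The other held 61 cells (56.5%, 46.6% to 66%) and was called secretory-like, with medians of 0 hormone-sensing and 10 secretory markers. The first principal component carried 22.95% of the variance of these genes and the second 3.46%. Of the 28 subset markers, 16 were themselves among the 500 genes, so their differences between clusters are a description and no result of a comparison. Members of the defence, ion transport, junction and lipid lists were among the 500 genes too, so the same holds for the cluster differences of those lists. Plate rows F to K, which held all but 2 of the cells, each held both clusters, with 30% to 52.6% hormone-sensing-like cells.

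The clusters also differed in depth and in the number of genes. Hormone-sensing-like cells had a median of 808345 reads and 4751 genes and secretory-like cells 483855 reads and 3032 genes. Thinned to 50000 reads, the median cell of each had 3385 and 2192 genes. Spike-in RNA, added in equal amount to each well, took a median of 2.86% of reads in hormone-sensing-like and 6.66% in secretory-like cells. Whether depth or RNA content has a part in the differences below was not tested.

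**Figure D2:**
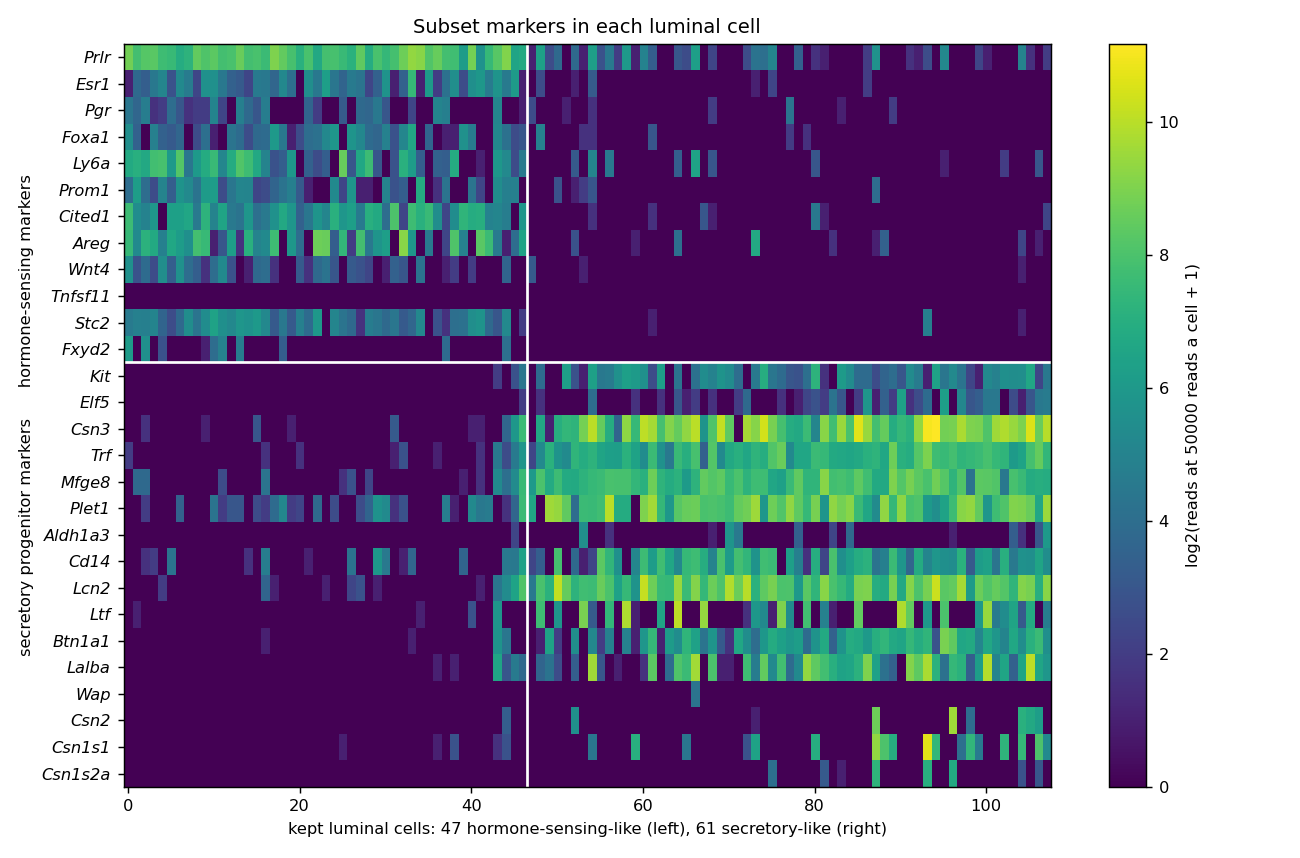
Thinned reads (colour, log2 of reads + 1) of 12 hormone-sensing markers (top) and 16 secretory progenitor markers (bottom) in the luminal cells, with the 47 hormone-sensing-like cells left of the vertical line and the 61 secretory-like cells right of it. Prlr and Stc2 fill the top left block, Csn3, Trf, Mfge8, Plet1 and Lcn2 the bottom right block, Tnfsf11 is empty, and casein genes other than Csn3 appear in few columns.

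Hormone receptors and their paracrine signals marked the hormone-sensing-like cluster. Of 10974 genes at 5 CPM or more in either cluster, 33.1% were higher by 2-fold or more in hormone-sensing-like cells and 20.6% lower, with a median log2 ratio of 0.33. Of the 11 hormone-sensing markers with reads, 11 were at least 2-fold higher there (median log2 ratio 5.12), while Tnfsf11, the RANK ligand, had no read in the gate. Prlr ran from 1095 over a median of 4721 to 12655 CPM in hormone-sensing-like cells and from 0 over 21.5 to 1656 CPM in secretory-like cells, so the ranges overlapped only at their ends. Esr1 ran from 2.35 over 388 to 3516 CPM and was detected in 38 of 47 cells, against a highest value of 140.6 CPM and 2 of 61 secretory-like cells.

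The signals that such cells send were as unequal. Areg, the EGF receptor ligand amphiregulin, was detected in 36 of 47 hormone-sensing-like and 4 of 61 secretory-like cells, at 1589 and 44.8 CPM over the clusters. Wnt4, a Wnt ligand downstream of progesterone in textbook accounts, was detected in 24 and 1 cells. Cited1, a transcriptional cofactor, lay at 1332 and 15.04 CPM, with 43 and 2 cells, and Ly6a, the surface antigen Sca-1, at 1825 and 75.4 CPM, with 39 and 8 cells. In the wider list of hormone receptors and signals, 7 of 13 measured members were higher in hormone-sensing-like and 3 in secretory-like cells. The shares of all genes were 33.1% and 20.6%. Cish, a feedback inhibitor of cytokine receptors, was less than 2-fold apart, at 232.7 and 159.7 CPM.

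The genes with the largest ratios toward the hormone-sensing-like cluster included secreted and plasma proteins. Gpx3, a secreted glutathione peroxidase, ran from 0 over a median of 500.4 to 6512 CPM and was detected in 36 of 47 cells, while its highest value in the other cluster was 2.27 CPM. Fgg and Fgb, fibrinogen chains usually known from the liver, were detected in 26 and 16 hormone-sensing-like cells, at 861 and 630 CPM over the cluster, and in no secretory-like cell, which allows a share of up to 4.92% by 3 counts of the total (the exact interval ends at 5.87%). Tspan1, a tetraspanin, was detected in 36 cells, Col8a1, a collagen chain, in 24, and the cytokine gene Il33 in 9. Sprr2a3 and Tph1 also met the rule but rest on few cells: 1 cell held 99.98% of the Sprr2a3 reads of the gate, a gene of a family with near-identical copies, and 1 cell 88.8% of the reads of Tph1, the enzyme that starts serotonin synthesis.

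Among ion transport genes, a carrier and a pump subunit had opposite patterns. Slc12a2, the sodium-potassium-chloride cotransporter, ran from 706 over a median of 5293 to 14826 CPM in hormone-sensing-like cells and from 0 over 6.95 to 2286 CPM in secretory-like cells, and all 47 cells of the first cluster detected it against 12 of 61 of the second. Atp6v1b1, a subunit of the proton pump, had the opposite pattern, with 3 of 47 and 56 of 61 cells and 9.73 and 878 CPM. The water channel gene Aqp5 was detected in both, in 33 and 29 cells, at 644 and 193 CPM. Of 10 measured transport genes 5 were higher in hormone-sensing-like and 3 in secretory-like cells (median log2 ratio 0.92), beside 33.1% and 20.6% of all genes. Of 14 junction genes 5 were higher in hormone-sensing-like cells and 1 in secretory-like cells (median 0.03). Cldn4, a claudin of tight junctions, lay at 3869 and 862 CPM, Cldn3 at 595 and 719.5 and Cldn7 at 418 and 477.5 CPM.

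Milk protein genes marked the secretory-like cluster. All 16 secretory progenitor markers were at least 2-fold higher there (median log2 ratio −6.02), as were 11 of 11 measured genes of milk proteins and the milk fat globule (−5.94). Of all genes, 20.6% were higher there. Csn3 ran from 0 over a median of 8952 to 47295 CPM in secretory-like cells and from 0 over 0 to 4002 CPM in hormone-sensing-like cells, with detection in 58 of 61 and 5 of 47 cells. Lalba, the cofactor of lactose synthesis, was detected in 47 and 4 cells, Btn1a1, a membrane protein of milk fat globules, in 51 and 2, and Mfge8, a secreted protein of the same globules, in 61 and 9 cells. Spp1 lay at 21308 CPM in secretory-like cells, from 2.1 over 13820 to 57114, and was detected in 57 of them.

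Defence and metal-binding genes formed the next block of this cluster. Of 14 measured members 11 were higher in secretory-like cells and 1 in hormone-sensing-like cells (median log2 ratio −4.73), beside 20.6% and 33.1% of all genes. Lcn2, lipocalin 2, which binds bacterial iron carriers, ran from 468 over a median of 5643 to 25355 CPM in secretory-like cells and was detected in all 61, against 6 of 47 in the other cluster. Trf, the iron carrier transferrin, was detected in 60 and 5 cells, Cp, the copper protein ceruloplasmin, in 60 and 13, and the chemokine gene Cxcl1 in 40 and 8. Cxcl2, Lbp (a lipopolysaccharide-binding protein) and Muc15 (a membrane mucin) were detected in 31, 25 and 36 secretory-like cells and in 2, 0 and 0 hormone-sensing-like cells. Plb1, a phospholipase, had no read in hormone-sensing-like cells and was detected in 32 secretory-like cells.

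Single genes of Notch signalling and fat synthesis lay apart. Hey1, a transcriptional target of Notch, lay at 15.2 CPM in hormone-sensing-like and 327 CPM in secretory-like cells, with 3 of 47 and 26 of 61 cells. Notch1 lay at 44.6 and 206 CPM, whereas Hes1, another Notch target, was higher in hormone-sensing-like cells, at 100.3 and 37.5 CPM. Of 9 measured Notch genes 2 were higher in the first and 4 in the second cluster, beside 33.1% and 20.6% of all genes. Cebpb, a transcription factor, lay at 35.3 and 497.5 CPM, Scd1, a fatty acid desaturase, at 56.2 and 1015 CPM, and Plin2, a lipid droplet coat protein, at 61.4 and 599.9 CPM. Scd2, a related desaturase, was 2.47-fold higher in hormone-sensing-like cells. The lipid list as a whole had 4 of 11 measured genes higher in each cluster, beside the 33.1% and 20.6% of all genes.

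The proteins used for the sort differed within the gate as transcripts. Cd24a lay at 2390 CPM in hormone-sensing-like and 707 CPM in secretory-like cells, and Itgb1, which encodes CD29, at 438 and 136.6 CPM. All these cells were sorted as CD24-positive with low CD29 by protein. The gate itself limits which cells of either kind could enter, so the shares of the clusters are shares of sorted cells and not of the gland.

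Between the clusters stood 9 cells with at least 3 detected markers of both lists. Of these, 5 were assigned to the hormone-sensing-like and 4 to the secretory-like cluster, 4 of them lay in plate row F, and their median was 4878 genes with a read against 3555 in the other cells. No doublet caller was run, and whether these wells held more than 1 cell was not tested. The mixed cells carried most reads of several secretory genes in the hormone-sensing-like sum. With and without them, Csn3 lay there at 80.7 and 10.3 CPM, Kit at 5.83 and 0.13, Spp1 at 412.6 and 8.11, Lalba at 34.9 and 0.84, and Hey1 at 15.2 and 0.19 CPM. Esr1 in the secretory-like sum was 5.25 CPM with and 2.1 CPM without them, and Acta2 in the hormone-sensing-like sum 63.5 and 4.96 CPM. The counts of higher and lower markers in both subset lists did not change without these cells.

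**Figure D3:**
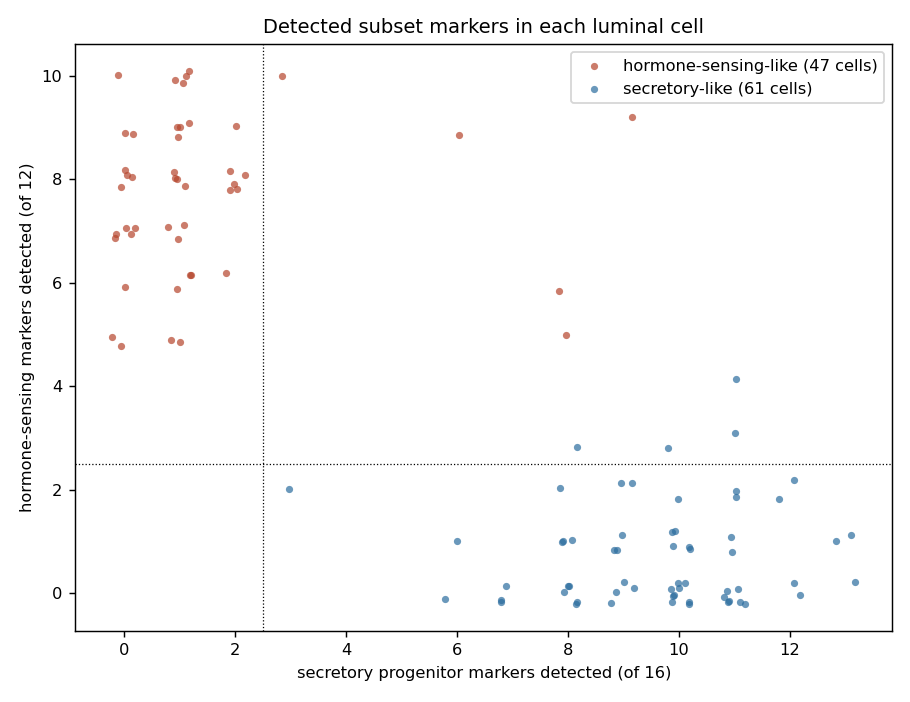
Number of detected secretory progenitor markers (x axis, of 16) against hormone-sensing markers (y axis, of 12) in each luminal cell, jittered, coloured by cluster, with dotted lines below 3 markers. There are 42 cells with at least 3 hormone-sensing markers only, 57 with at least 3 secretory markers only, 9 with both and 0 with neither.

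Cell-to-cell variation was measured for 6500 genes as the squared coefficient of variation of thinned reads, divided by its running median over genes of like mean. A ratio of 3 or more was reached by 286 genes (4.4%). Of the 12 genes with the highest ratios at 100 CPM or more, several encode milk or other secreted proteins. Apod, a lipid-binding lipocalin, had the highest ratio at 32.9, and was detected in 12 cells, with 40.3% of its reads in 1 cell. That share is of unthinned reads. Per cell, 1 cell stood out at 31751 CPM beside a mean over cells of 644.7 CPM. Csn1s1, an alpha-casein, followed at 24.8 with 20 cells, Sprr2a3 at 17.9 with 1 cell and Csn2, the beta-casein, at 16.9 with 8 cells. Ltf, the iron-binding lactoferrin, reached 15.2 with 30 cells, Tph1 13.7 with 4 cells, Lalba 9.62 with 51 cells and Cst3 9.11 with 67 cells. The highest cell lay at 32301 CPM for Csn1s1, beside a mean of 760.1, and at 15756 CPM for Csn2, beside 291.6. The ratios of Apod, Csn1s1, Sprr2a3, Csn2 and Tph1 therefore rested largely on 1 cell each.

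Some high ratios rested largely on 1 cell and others less so. A single cell held 51.01% of the reads of Rdh10, an enzyme of retinoic acid synthesis, and 61.4% of those of Flrt3, an adhesion protein, which gave ratios of 8.59 and 8.25. Crybg1, at a ratio of 10.4, was detected in 30 cells, and no cell held more than 10.45% of its unthinned reads. The ratio counts each cell at equal depth, however. On that scale 1 cell stood out, at 11599 CPM beside a mean over cells of 210.6 and an upper quartile of 114.2 CPM. The ratio of Crybg1 therefore also rested largely on 1 cell. Chil1, a chitinase-like secreted protein, had a ratio of 7.89, with 34.07% of its reads in 1 of the 41 cells that detected it. Krt18 (0.82), H2-D1 (0.66) and H2-K1 (0.55), the latter pair MHC class I heavy chains with near-identical relatives, lay below the running median, and CT010467.1 had a ratio of 0.13.

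**Figure D4:**
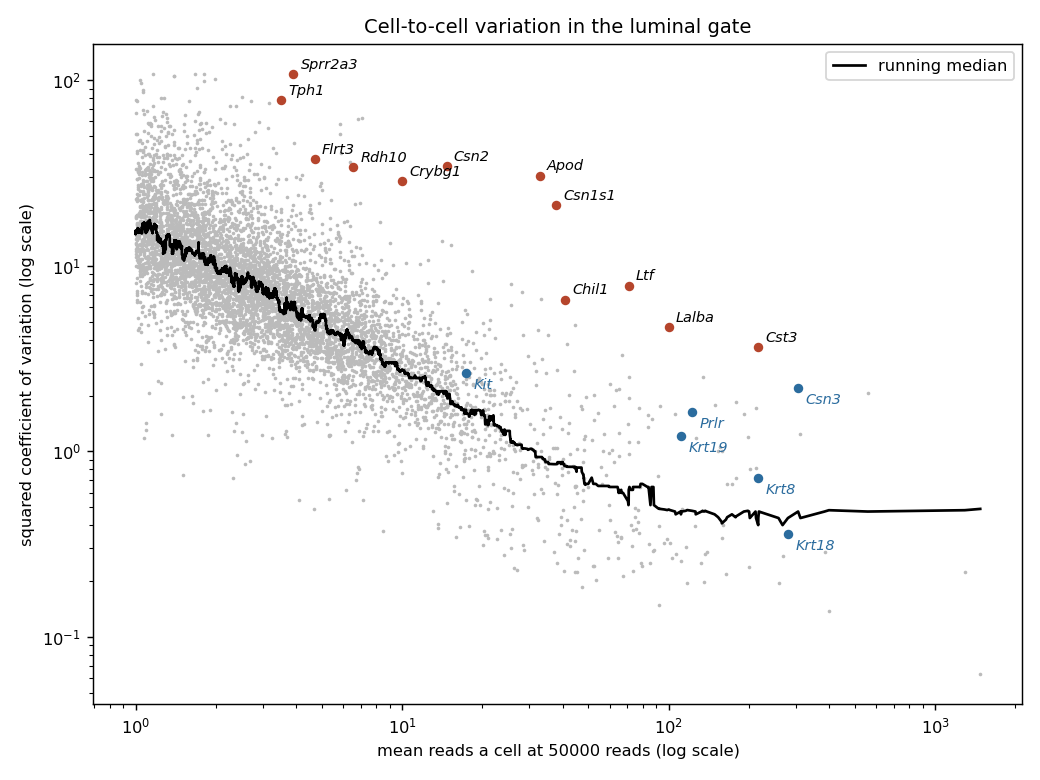
Squared coefficient of variation over the luminal cells (y axis, log scale) against mean reads a cell at 50000 reads (x axis, log scale) for 6500 genes, with the running median as a line, the 12 named variable genes in red and the 6 luminal markers in blue. Apod and Csn1s1 lie farthest above the line at high mean, and Krt18 lies just below it.

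Among the caseins and other milk genes, the cells with a rarer gene nearly always had Csn3 and Lalba in the secretory-like cluster, as did most cells of that cluster. Of 61 cells, 58 detected Csn3, 47 Lalba, 18 Csn1s1, 7 Csn2, 7 Csn1s2a and 1 Wap, the whey acidic protein gene. Of the 47 cells with Lalba, 46 had Csn3. All 18 cells with Csn1s1 had Csn3 and 17 of them had Lalba, and all 7 cells with Csn2 had both Csn3 and Lalba. The rarer caseins were not nested in each other: of the 7 cells with Csn2, 4 had Csn1s1 and 4 had Csn1s2a, of the 7 with Csn1s2a, 4 had Csn1s1, and the 1 cell with Wap had none of these. No cell detected all 6 genes: 2 cells had none, 12 had 1, 24 had 2, 17 had 3, 3 had 4 and 3 had 5. Abundance over the cluster followed a similar order, at 11046 CPM for Csn3, 3612 for Lalba, 1280 for Csn1s1, 499 for Csn2, 132.9 for Csn1s2a and 6.16 for Wap, so a rarer gene is also the one less likely to pass the detection limit.

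Csn1s1 and Csn2, the casein genes that few cells carried at high level, lie near each other on chromosome 5, and Lalba lies on chromosome 15. Their upstream sequences are shown because these genes are known targets of prolactin signalling through STAT5. Whether the sequences have a part in how many cells carried each gene was not tested. They are the 250 bases before the start in RefSeq (GRCm38.p6), at chr5:87665958-87666207 on the plus strand for Csn1s1, chr5:87699426-87699675 on the minus strand for Csn2 and chr15:98482684-98482933 on the minus strand for Lalba, written 5′ to 3′ on the strand of the gene. Capitals mark the motif TTCNNNGAA, the palindrome of STAT factors, which reads alike on both strands.
Csn1s1: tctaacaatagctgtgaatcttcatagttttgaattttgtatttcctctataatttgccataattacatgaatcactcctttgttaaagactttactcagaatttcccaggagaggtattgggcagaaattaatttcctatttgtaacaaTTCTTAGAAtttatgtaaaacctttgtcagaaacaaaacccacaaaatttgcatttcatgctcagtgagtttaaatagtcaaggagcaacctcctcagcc
Csn2: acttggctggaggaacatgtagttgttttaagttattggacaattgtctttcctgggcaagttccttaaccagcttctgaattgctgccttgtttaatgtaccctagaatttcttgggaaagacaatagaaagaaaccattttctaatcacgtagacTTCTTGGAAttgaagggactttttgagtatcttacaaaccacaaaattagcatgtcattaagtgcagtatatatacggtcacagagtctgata
Lalba: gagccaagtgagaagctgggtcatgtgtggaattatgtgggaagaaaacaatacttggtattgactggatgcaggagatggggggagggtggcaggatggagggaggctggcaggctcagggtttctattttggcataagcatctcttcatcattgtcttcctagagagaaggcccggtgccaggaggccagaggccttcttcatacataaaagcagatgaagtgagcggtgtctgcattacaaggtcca
The motif stands once in the Csn1s1 window, starting 100 bases before the start, and once in the Csn2 window, 93 bases before it. It does not occur in the Lalba window. Of 32851 promoters searched over the same 250 bases, 7.02% held it, and a match is a description of letters, not a measured binding site. Csn1s1 ran from 0 over a median of 0 to 32301 CPM and Csn2 from 0 over 0 to 15756 CPM, with 50% of the reads of each in 2 cells. Of the 20 cells with Csn1s1 and the 8 cells with Csn2 in the whole gate, 5 had both. Lalba ran from 0 over 27.6 to 21521 CPM, with 6 cells holding 50% of its reads.

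Within the secretory-like cluster many immediate early genes were higher in the same part of a finer split. A split into 3 clusters, one more than the silhouette chose, left the hormone-sensing-like cells together and divided the 61 secretory-like cells into 31 and 30. These had medians of 544854 and 402859.5 reads, and the part of depth in the differences was not tested. The 30 cells had Fos, an immediate early transcription factor, at 6481 CPM with detection in 29 cells, against 281.5 CPM and 12 cells in the 31. Of the 17 immediate early and heat shock genes, 11 were at least 2-fold higher in the 30 cells and 1, the chaperone gene Dnajb1, lower (median log2 ratio 1.16), beside 30.9% higher and 28.3% lower among 9956 genes (median 0.07). Fosb lay at 3177 against 429 CPM and Egr1 at 4275 against 1186 CPM, while the chaperone genes Hspa8 and Hsp90aa1 were less than 2-fold apart. The 31 cells had higher Csf3, a granulocyte growth factor (993 against 6.32 CPM, 14 against 1 cells), and Lif, a cytokine of the interleukin 6 family (556 against 9.17 CPM, 15 against 2 cells). These genes took part in the clustering, so the values are a description.

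Immediate early genes were high in the gate as a whole. All 17 immediate early and heat shock genes lay at 5 CPM or more, and 14 were detected in at least 50% of the cells. Their summed level ran from 2434 over a median of 13386 to 64884 CPM. Egr1, a transcription factor of this class, was detected in 95 cells (88%, interval 80.3% to 93.4%), Fosb in 91, Atf3 in 84 and Fos in 82. Fos and Fosb were less than 2-fold apart between the 2 clusters, at 2336 and 2855 CPM and at 1485 and 1570 CPM. The protocol digests the tissue with enzymes before sorting, and its part in these levels was not tested.

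Transcripts of G2 and M phase were rare in luminal cells. Of 18 genes of G2 and M phase, 2 reached 5 CPM (Kif11, a spindle motor, at 10.6 and Ube2c, a ubiquitin enzyme of mitosis, at 8.46), and their sum was 40.9 CPM against 183.8 in the basal and 1769 in the embryonic gate. At least 3 of them were detected in 1 luminal cell, and 75.7% of the Kif11 reads were in 1 cell. Of 16 S phase genes 7 reached 5 CPM, led by Pcna, the sliding clamp of DNA polymerases, at 171 CPM and detected in 12 hormone-sensing-like and 32 secretory-like cells. The sum of the S phase genes was 367 CPM, against 348 in the basal and 2030 in the embryonic gate. Of 9 measured against basal cells 4 were higher and 4 lower, beside 21.4% and 28.5% of all genes. At least 3 S phase genes were detected in 4 cells. The median of the per-cell sum of G2 and M genes was 0.

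The comparison with basal cells describes how the luminal gate differed from the other adult gate, which lay mostly in other plate rows. Of 11870 genes at 5 CPM or more in either gate, 21.4% were higher in luminal cells by 2-fold or more and 28.5% lower, and the median log2 ratio was −0.14. Of 15 pan-luminal genes 14 were higher and none lower (median 2.71), and all 6 gate markers were higher. Krt8 was 5.12-fold higher (interval 5.07 to 5.17), Krt18 8.61-fold (8.52 to 8.7), Krt19 10.9-fold (10.7 to 11.1), Csn3 52.6-fold (51.2 to 54), Prlr 5.93-fold (5.85 to 6.01) and Kit 761-fold (507 to 1201). These folds depend on the basal cells that matched another gate's well. Those cells were picked from the same data by their likeness to another gate, so ratios without them are no independent check. With the matching wells of both gates left out, the log2 ratio moved from 2.35 to 4.61 for Krt8, from 3.1 to 5.4 for Krt18, from 3.44 to 8.46 for Krt19, from 5.7 to 6.97 for Csn3, from 2.56 to 10.4 for Prlr and from 7.84 to 8.36 for Kit. In the wells of 50 cells the log2 ratios were 3.58 for Krt8, 3.79 for Krt18, 1.85 for Krt19, 5.7 for Csn3, 1.85 for Prlr and 5.74 for Kit, so those of Krt19, Prlr and Kit were smaller there.

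Many secretory, junction and defence genes lay at a higher level than in basal cells too, while defence genes were also detected in most basal cells. The secretory progenitor list had 14 of 15 measured members higher (median 5.7), the hormone-sensing list 10 of 11 (2.56), the junction list 11 of 14 (2.69), ion and water transport 8 of 10 (2.88) and the defence list 10 of 14 with 1 lower (2.34). At least 3 defence genes were detected in 81.5% of luminal cells and in 82 of 100 basal cells. Lcn2 was 1.64-fold higher in luminal cells but detected in 62.04% of them against 83% of basal cells. Trf (60.2% against 27%), Cp (67.6% against 61%) and Cxcl1 (44.4% against 12%) were detected in more luminal cells. The hormone receptor list went the other way in part, with 4 of 13 higher and 6 lower (median −0.99). MHC class I genes had 4 of 11 higher and none lower (0.76), and immediate early genes 4 of 17 (0.52). Of all genes measured against basal cells, 21.4% were higher and 28.5% lower. The immediate early count lay near that share of higher genes. Chil1 was 5.98-fold higher in basal cells (interval 5.93 to 6.03), at 6052 against 1012 CPM. The basal and myoepithelial list lay 2-fold or more below basal cells in 14 of 14 members (median −6.77).

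Against embryonic progenitors the milk and defence genes stood out further. Of 12679 genes, 17.5% were higher in luminal cells by 2-fold or more and 39.4% lower, with a median log2 ratio of −0.59. The higher genes made up 30.8% of those past 2-fold, and 44.6% and 46.1% of them under trimmed mean of M values and median-of-ratios scaling, which shift the ratios by 0.48 and 0.53. All 15 measured secretory genes, 10 of 10 milk genes, 14 of 14 defence genes and 14 of 14 junction genes were higher (medians 9.01, 7.39, 6.42 and 1.69). Pan-luminal genes were higher in 13 of 15 (median 4.51), hormone-sensing genes in 9 of 11 (5.7) and MHC class I genes in 10 of 11 (3.98). Among the 6 markers Krt8 was 13.2-fold (interval 13.03 to 13.3), Krt18 30.2-fold (29.8 to 30.7), Krt19 57.4-fold (55.7 to 59.2) and Kit 10.2-fold higher (9.79 to 10.6), and Prlr had a log2 ratio of 6.94, or 8.16 without the cells matching another gate. In the wells of 50 cells the log2 ratio of Krt19 over embryonic cells fell from 5.81 to 4.39 and that of Kit from 3.31 to 2.33, while those of Krt8, Krt18 and Prlr rose to 4.46, 6.87 and 11.4. S phase genes were lower in 14 of 16 (median −3.99) and G2 and M genes in 18 of 18 (−5.35).

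Some genes were far higher in luminal cells than in both other gates. Btn1a1 lay at 790 CPM against 1.3 in basal cells (606-fold, interval 480 to 778) and 0.08 in embryonic cells. Lalba lay at 1827 CPM against 13.2 in basal cells (138-fold, 128.2 to 148.8), and Plet1 at 3692 against 84.4 CPM (43.8-fold, 42.5 to 45.1). Cck, the hormone cholecystokinin, lay at 275 CPM against 3.02 in basal (91.1-fold, lower limit 78.05) and 0.03 in embryonic cells, and was detected in 39 secretory-like and 1 hormone-sensing-like cell. Nupr1, a stress-responsive chromatin protein, lay at 678 CPM, 19.02-fold above basal cells, and Gch1, the first enzyme of tetrahydrobiopterin synthesis, at 197 CPM, 42.6-fold above them. Without the cells matching another gate, the log2 ratio over basal cells moved from 7 to 9.37 for Lalba, from 5.43 to 9.79 for Plet1, from 6.1 to 8.06 for Cck, from 4.38 to 7.03 for Spp1, from 4.21 to 4.97 for Nupr1, from 5.14 to 5.74 for Gch1 and from 5.54 to 6.83 for Tmprss13. Tmprss13, a membrane serine protease, was 76.5-fold above basal cells in single cells, but in the wells of 50 cells its log2 ratio was −0.37.

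**Figure D5:**
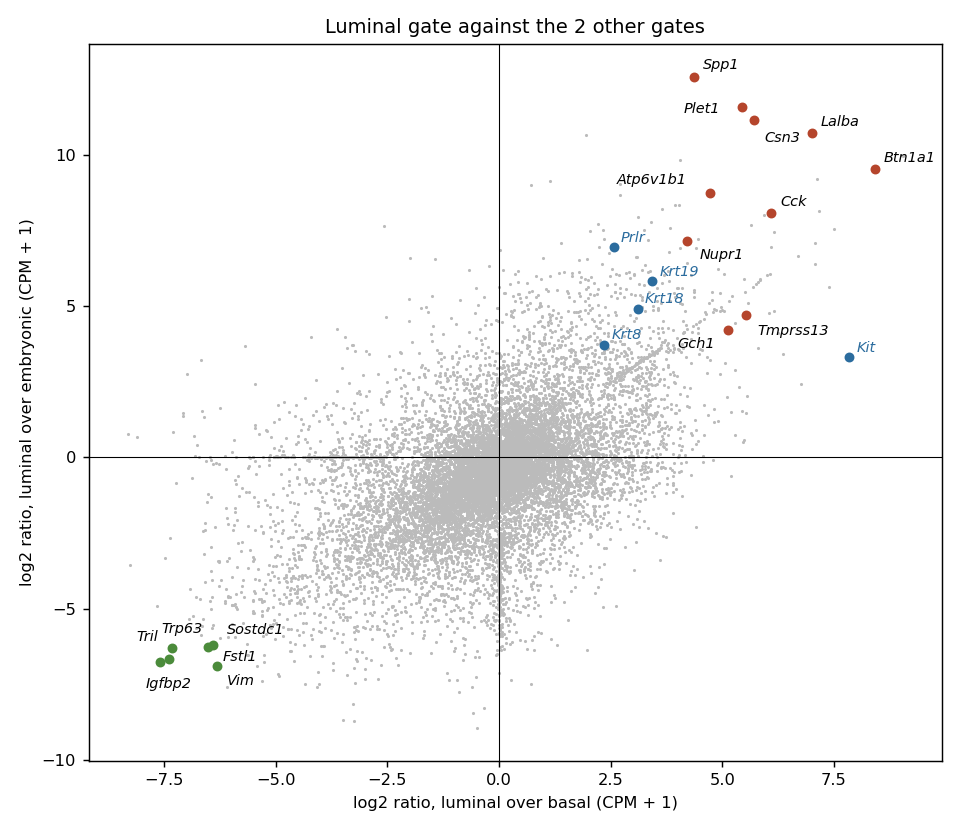
Log2 ratio of luminal over basal level (x axis) against luminal over embryonic level (y axis), both on CPM + 1, for each measured gene, with the 10 genes highest over both gates in red, the 6 lowest in green and luminal markers in blue. Both axes share the luminal values. Lalba, Btn1a1, Csn3, Plet1 and Spp1 lie at the upper right and Trp63, Vim and Igfbp2 at the lower left.

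The 6 genes with the largest deficit in luminal cells against both other gates lay at 4.79 CPM or less in them. Trp63, the transcription factor of basal and stratified epithelia, lay at 2.04 CPM against 488 in basal (239-fold lower, interval 202 to 285) and 237 in embryonic cells. Vim, the intermediate filament of mesenchymal cells, lay at 3.77 CPM against 382 and 559, and Fstl1, a secreted glycoprotein, at 4.79 against 528 and 444 CPM. Igfbp2, which binds insulin-like growth factors, lay at 0.27 CPM against 244 and 137.2, Tril, a modulator of Toll-like receptor signalling, at 0.43 against 238 and 145, and Sostdc1, an inhibitor of Wnt and BMP signals, at 0.04 against 88.2 and 76.1 CPM. The basal level of Igfbp2 came from 7 of 100 cells, and its log2 ratio over basal cells moved from −7.6 to −5.92 as a mean of per-cell CPM, to −6.9 without the cells matching another gate and to −2.58 in the wells of 50 cells. In those wells the ratios of Vim and Fstl1 moved from −6.33 to −8.62 and from −6.52 to −9.91. Trp63 was detected in 1 luminal cell and Tril in 0, which allows a share of up to 2.78% by 3 counts of the total (the exact interval ends at 3.36%). The luminal-to-basal and luminal-to-embryonic ratios of a gene share the luminal values and are not independent.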

How the data were processed

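RNA of single cells sorted from mouse mammary tissue was measured in 384 wells. The deposited values are raw read counts per gene and well from the authors, for 49585 genes and 92 spike-ins, and per the labels' protocols the libraries followed a modified Smart-seq2 protocol. The tools and build were cutadapt 1.13, STAR 2.5.2b, HTSeq 0.6.0 and GRCm38, per the submitters' processing notes. The sources used here do not give strand mode or annotation, and overlapping and antisense genes may share reads. Symbols and coordinates came from GENCODE M21 (GRCm38), with 49326 identifiers matched, 5577 of them without the version, and 259 unmatched.

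From the counts, CPM was computed per cell and for reads summed over a gate, and TPM from exon lengths. Shares of cells used 5 reads after thinning to 50000 reads, with exact Clopper-Pearson intervals. Folds are CPM ratios with exact conditional Poisson intervals, and log2 ratios add a prior of 1 CPM. Against a gate with 0 reads a floor of 3 reads applies. Variation used a running median of 101 genes, and clusters used Ward linkage on 10 principal components of 500 genes. Measured genes reached 5 CPM in either group, and called genes differed at least 2-fold. No doublet caller was run. The 1 well with a luminal title and an embryonic sort label entered no comparison, and of 121 luminal wells 108 were kept (13 failed, 9 on reads, 8 on genes and 4 on mitochondrial share, some on several), beside 100 basal and 123 embryonic cells. Python 3.11.15 with scipy 1.17.1, edgeR 4.0.16 and DESeq2 1.42.0 (the latter pair for scaling factors only) were used. The code for clustering and fold calls was run on simulated cells with the same spread for all genes. The spread in these data differs between genes, so that run gives no error rate for the calls made here.

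Named genes were the 6 gate markers, the 12 highest by TPM, the 12 most variable at 100 CPM or more, up to 4 highest members of each of 24 lists, the 10 highest and 6 lowest over both other gates, and 8 of each cluster. Ribosomal protein, mitochondrial and unnamed model genes were left out of these rankings. Other members of the subset and casein lists (Elf5, Pgr, Wnt4, Stc2, Csn1s2a, Wap) and the genes of the split into 3 clusters were named after their values were seen. The cells, lists and rules were chosen with earlier results of these data known. Alternatives were other detection limits, seeds, cell filters, plate rows, gene numbers, scalings, priors, minimum levels and wells of 50 cells.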

Additional observations from a re-analysis of the deposited data

Results flagged for a closer look

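One well lies outside all comparisons because its title names a luminal cell and its sort label the embryonic gate, and it was noted for a signal above the 34 to 563 reads of the wells without a cell. It held 774060 reads on genes and 4031 genes with a read. Across genes its Spearman correlation was 0.451 with the luminal well of 50 cells, 0.369 with the basal well and 0.29 with the embryonic well. Csn3 lay at 15939 CPM, Krt18 at 4095, Krt8 at 1543, Kit at 340 and Prlr at 1.29 CPM, while Krt14, Krt5, Trp63 and Sox11 had no read. Its label was not changed.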

How the results depend on the processing

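No paired analysis was possible because the labels name no animal and each gate is 1 sample. Detection shares depended on the limit: with 1 unthinned read they were 100% for Krt8 and Krt18, 90.7% for Krt19, 75% for Csn3, 87.04% for Prlr and 59.3% for Kit, and 46.3% of cells had both Prlr and Kit, 12.96% Kit only and 0% neither. With the stricter cell filter (92 cells) Krt8 and Krt18 were detected in 100%. Limits of 2 and 10 reads, another seed and rows G to J kept each share within its interval. The share of hormone-sensing-like cells was 41.7% to 48.9% over the cluster alternatives, with at most 2 cells assigned otherwise. Counts of genes past 2-fold stayed within 1.5 times of the given ones, and among the named genes followed over both gates 1 log2 ratio changed sign, Tmprss13 over basal in the wells of 50 cells (−0.37). The choice without cells matching another gate, without mixed cells and with another thinning seed for the clusters was made after the data were seen. Gate levels of the 15 genes followed were 0.161 (Kit) to 2.88 (B2m) times as high in the well of 50 cells, with Spp1 at 2.74 times. As a mean of per-cell CPM they were 0.762 to 1.16 times as high. Between gates 44 log2 ratios were followed, a count that enters Csn3 2 times for each gate. Of these entries 23 moved by more than 1 and 1 changed sign in the wells of 50 cells. Without the cells matching another gate, 13 entries moved by more than 1. Depth limits detection, since 5 reads at 50000 correspond to 100 CPM.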
